A study of Macaca mulatta with 449 samples.

Results

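The pore-forming alpha-1 subunits of the voltage-gated calcium channels were examined across the brain of the rhesus macaque. The members were the 8 rows of the gene count table, of 30807 rows in all, that carry the symbols of the L-type, Cav2 and T-type subunits listed here. They were CACNA1C (ENSMMUG00000012988) and CACNA1D (ENSMMUG00000019262) of the L-type family, CACNA1A (ENSMMUG00000003555), CACNA1B (ENSMMUG00000009187) and CACNA1E (ENSMMUG00000014498) of the Cav2 family, and CACNA1G (ENSMMUG00000017256), CACNA1H (ENSMMUG00000014213) and CACNA1I (ENSMMUG00000004878) of the T-type family. Each symbol matched 1 row.

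An alpha-1 subunit forms the calcium pore, its voltage sensor and the site of most drugs that act on the channel. L-type channels couple depolarization to gene transcription, hormone release and pacemaking, and are the target of the dihydropyridines. Channels of the Cav2 family admit the calcium that triggers transmitter release at nerve terminals and carry the P/Q-type (CACNA1A), N-type (CACNA1B) and R-type (CACNA1E) currents. T-type channels open near the resting potential and underlie rebound bursting, for which the thalamus is the classic example.

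Total RNA depleted of ribosomal RNA was sequenced from 51 sub-regions of 8 animals, with 1 library for each animal and sub-region. The animals were Rhesus 2 and 3 (male, 10 years), 4 (female, 3.2 years), 6 (female, 10 years), 7 (male, 4 years), 8 (male, 3.8 years), 10 (female, 5 years) and 11 (female, 9.8 years). Animals 4, 7, 8 and 10 formed the young stage and animals 2, 3, 6 and 11 the mid-aged stage, with 2 animals of each sex in each. The sub-regions fell into 16 region groups. These were the cortex (31 sub-regions), the hippocampus (HIP, 3), the striatum (STR, 3), the cerebellum (CB, 2), and 12 groups of 1 sub-region each: entorhinal and perirhinal cortex (PA), amygdala (AMY), olfactory bulb (OB), globus pallidus (GP), thalamus (THA), hypothalamus (HTHA), substantia nigra (SN), ventral tegmental area (VTA), pons (PON), medulla oblongata (MO), corpus callosum (CC) and pituitary (PIT). Levels are given as CPM, counts scaled to a common library size, on TMM-scaled library sizes, averaged within an animal over the sub-regions of a group. CPM takes no account of transcript length, so levels are compared between regions and never between genes.

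The total count per library was between 7784678 and 31083490, with a median of 10698602. The lowest count of a member in any library was 3, for CACNA1E and CACNA1I, and only 1 library was at or below 3 for each of these. The labels were checked against marker genes: 4 matched cerebellar neuron markers summed to 2784 to 3500 CPM in CB and at most 133 CPM elsewhere, and 3 matched striatal neuron markers to 2383 to 3040 CPM in STR and at most 480 CPM elsewhere. The 3 thalamic neuron markers summed to 588 to 1372 CPM in THA but reached 617 CPM in PON. Marker sums stood apart from their group in several libraries, and 5 of these were chosen after seeing the data. The hypothalamus of animal 6 held 614 CPM of 4 summed cortical projection neuron markers against 10.7 to 18.2 CPM in the other 7 hypothalami. The medulla of animal 6 held 413 CPM of 8 summed neuron markers against 6063 CPM or more in the others, a value within the range of the corpus callosum (234 to 740 CPM). The globus pallidus of animal 3 held 480 CPM of 3 matched striatal neuron markers against 190 to 237 CPM. The globus pallidus of animal 2 held 103900 CPM of 5 matched oligodendrocyte markers against 47920 to 71700 CPM in the others, and the substantia nigra of animal 4 held 103 CPM of the cortical projection neuron markers against 4.84 to 47.9 CPM. Each of the 5 was left out in turn. Other libraries also stood apart and were not left out singly. They included the thalamus of animal 8, with 588 CPM of the thalamic markers against 1080 to 1372 CPM in the others. The hypothalamus of animal 3 held 34460 CPM of the oligodendrocyte markers (others 3334 to 20070 CPM). The ventral tegmental area of animal 2 held 392 CPM of the thalamic markers (others at most 206 CPM). In bulk tissue, fewer cells that express a gene and less RNA per cell cannot be told apart.

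All 8 members differed over the 16 region groups, which held for 99.6% of all genes tested (edgeR's quasi-likelihood F test, adjusted p under 0.05). Each group was then compared with the mean of the other 15, with the animal as a block, and a gene was called at an adjusted p under 0.05 and an absolute log2 fold change above 1. Of the pairs of a member and a group (8 members in 16 groups), 73 were called, against 17.3% of all pairs of a gene and a group. The called pairs were 41 with a higher level (background 9.36%) and 32 with a lower level (background 7.96%). The T-type genes were called most often, CACNA1I and CACNA1G in 12 groups each and CACNA1H in 12, and CACNA1A least often, in 4. The median log2 fold change over the member pairs was 0.21, while over all genes it lay between -0.05 and 0.03 in each group.

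**Figure D1:**
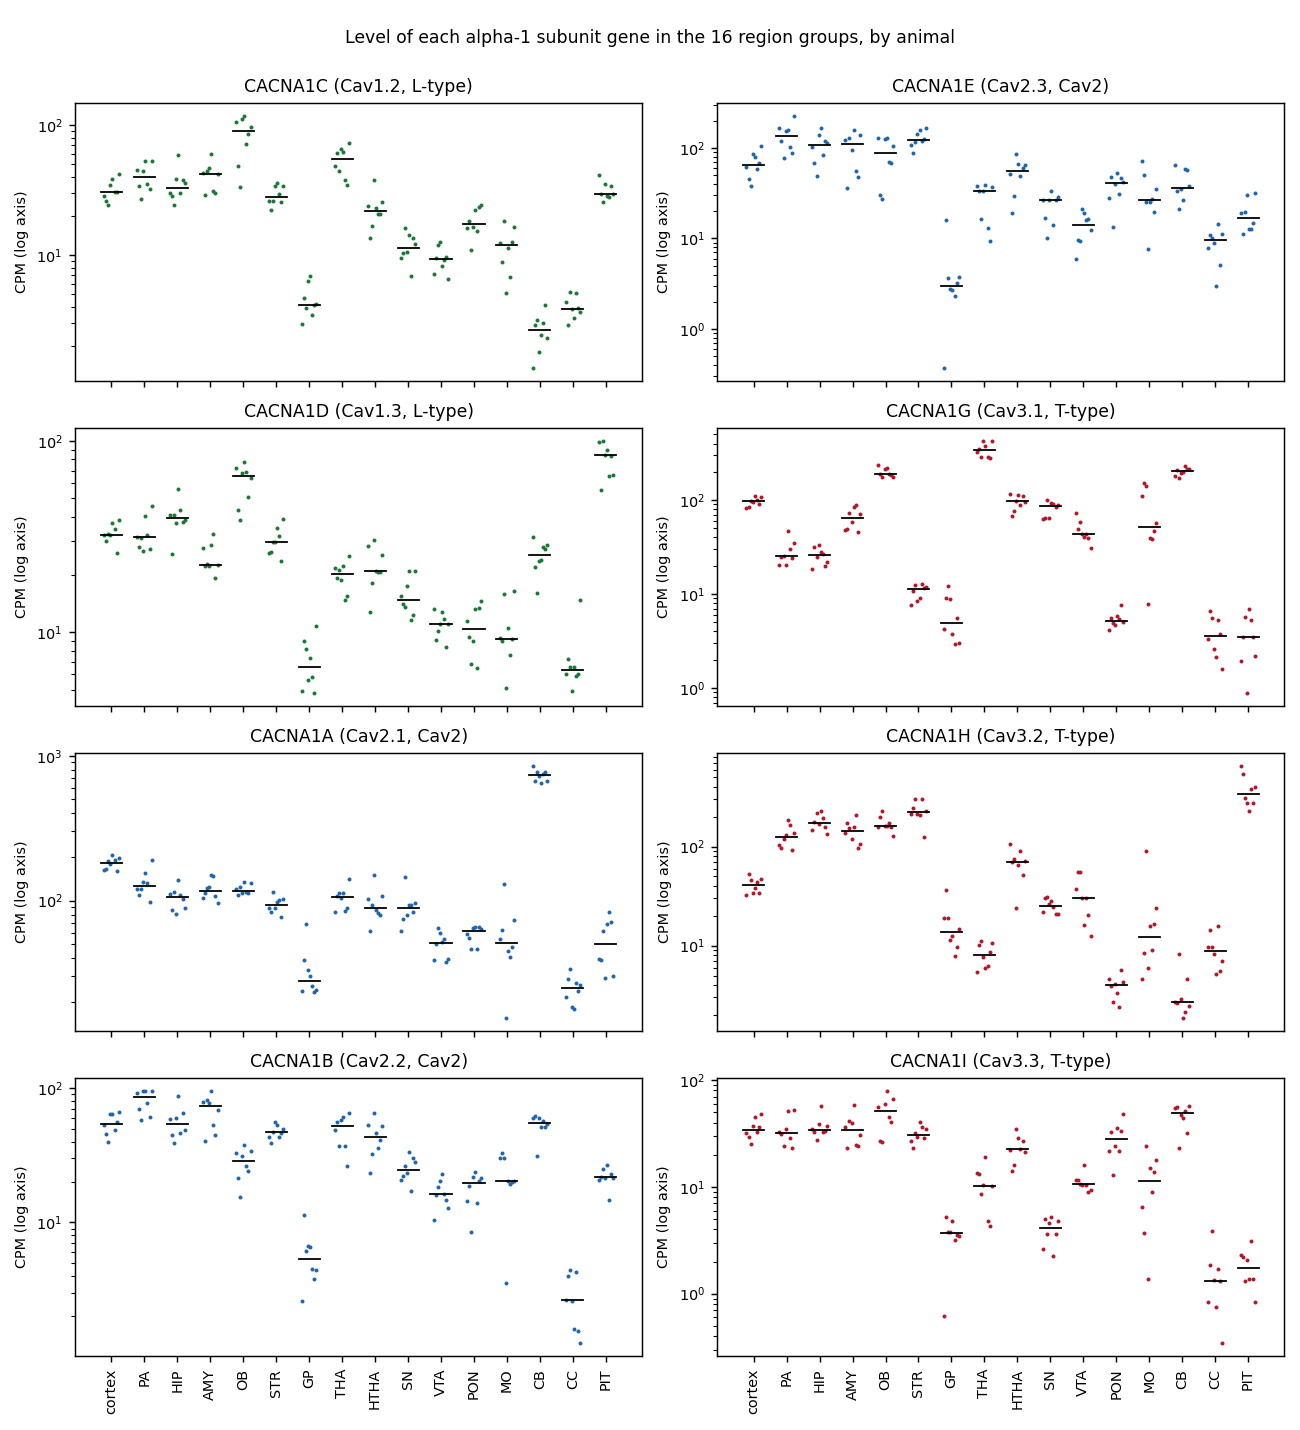
Level of each of the 8 genes in CPM (log axis) in the 16 region groups; each point is 1 animal (n = 8) and the line is the median. CACNA1A stands highest in CB, CACNA1G in THA and CACNA1H in PIT, while GP and CC are low in every panel.

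The groups differed in how many members moved and in which direction. Each background in this paragraph is the share of all genes called in that group in either direction. Every member was lower in the corpus callosum (8 of 8, background 31.7%) and in the globus pallidus (8 of 8, background 18.5%). Of 17086 genes, 3122 were called lower in the corpus callosum and 1590 in the globus pallidus. Higher members alone were called in the olfactory bulb (6 of 8, background 16%), the hippocampus (6 of 8, background 15.0%), the amygdala (5 of 8, background 15.8%), the entorhinal and perirhinal cortex (5 of 8, background 15.1%), the cortex (4 of 8, background 18%) and the hypothalamus (1 of 8, background 7.37%). Lower members alone were called in the ventral tegmental area (3 of 8, background 9.21%). Both directions occurred in the cerebellum (4 higher and 2 lower, background 29.2%), the pituitary (2 higher and 3 lower, background 38.5%), the striatum (3 and 1, background 14.3%), the thalamus (2 and 1, background 12%), the pons (1 and 3, background 15.5%), the medulla (1 and 2, background 10.8%) and the substantia nigra (1 and 1, background 10.6%). The median member log2 fold change ran from -2.32 in the corpus callosum and -2.18 in the globus pallidus to 1.74 in the olfactory bulb.

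Neuron markers were low in both groups. The summed level of the 8 neuron markers was 234 to 740 CPM in the corpus callosum and 2053 to 5380 CPM in the globus pallidus, against 11720 to 13020 CPM in the cortex. The range of the globus pallidus overlapped those of the striatum (4349 to 5435 CPM) and the hypothalamus (3924 to 8763 CPM). In the striatum 3 members were called higher and 1 lower, and in the hypothalamus 1 was called higher. The hypothalamic value of 8763 CPM was that of animal 6, with raised cortical markers, and the other hypothalami held 3924 to 6326 CPM. The summed level of 5 matched oligodendrocyte markers went the other way, with medians of 101900 CPM in the corpus callosum, 56890 CPM in the globus pallidus and 3136 CPM in the cortex. The part of these cell types in the member levels was not tested. All 8 members stayed called lower in the globus pallidus without the library of animal 2 (-3.13 to -1.48) and without that of animal 3 (-4.02 to -1.62). In the pituitary the neuron marker sum was also low (median 831 CPM), and CACNA1D and CACNA1H had their highest group level there. Libraries of the pituitary held 30190 to 347000 CPM of 4 matched anterior pituitary markers, and at most 272 CPM was found in any other region group.

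**Figure D2:**
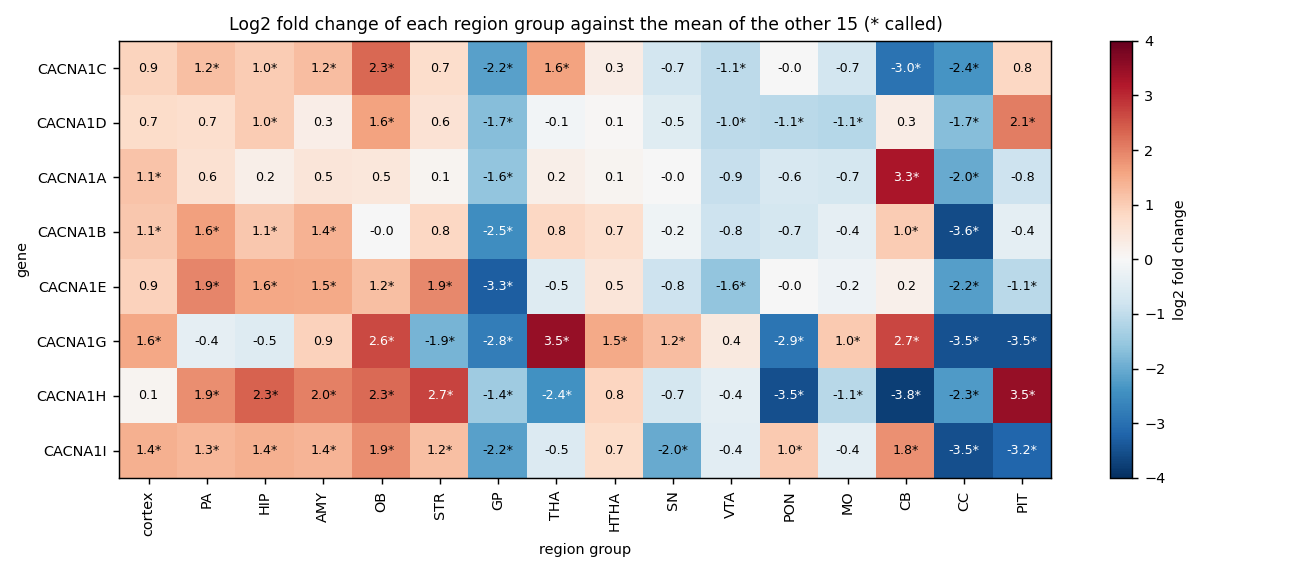
Log2 fold change (colour and number) of each region group against the mean of the other 15 for each member, from the fit over all genes; an asterisk marks a call at adjusted p under 0.05 and absolute log2 fold change above 1. The T-type rows change sign between groups, whereas the columns GP and CC are lower throughout.

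CACNA1C, the Cav1.2 L-type channel of neurons, heart and smooth muscle, was highest in the olfactory bulb. There the 8 animals ranged from 33.5 to 118 CPM with a median of 91 CPM (log2 fold change 2.29, SE 0.10, adjusted p = 1.10e-41). The thalamus came next, at 34.4 to 72.6 CPM with a median of 54.9 CPM (log2 fold change 1.62, adjusted p = 7.89e-27). At the other end the cerebellum held 1.35 to 4.12 CPM with a median of 2.67 CPM, the lowest level of this gene in any group (log2 fold change -2.96, SE 0.17, adjusted p = 2.56e-32). No cerebellar value reached the lowest olfactory bulb or thalamic value. The mean fell 31.8-fold from the olfactory bulb (83.9 CPM ± 30.7, SD, n = 8) to the cerebellum (2.64 CPM ± 0.86, SD, n = 8). Calls were also made for AMY (1.23), PA (1.2) and, lower, for VTA (-1.05), GP (-2.19) and CC (-2.37) on the log2 scale. The hippocampus lay at the fold limit: its log2 fold change was 1.00, and the call was lost with DESeq2 or its size factors (0.99 each), without the medulla of animal 6 (0.99) and without animal 6, 7 or 10 (0.92 to 1.00). The call for VTA was lost without animal 7 (-0.99) or 11 (-0.97).

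CACNA1D, the Cav1.3 channel, which opens at lower voltages than Cav1.2 and serves pacemaking and hormone secretion, was highest in the pituitary. The 8 pituitaries held 55.3 to 100.2 CPM with a median of 84.0 CPM (log2 fold change 2.06, SE 0.08, adjusted p = 1.06e-44). The olfactory bulb followed at 38.6 to 77.6 CPM, median 65.8 CPM (log2 fold change 1.61, adjusted p = 3.65e-33), and the ranges of these groups overlapped. The lowest levels were in the globus pallidus (4.77 to 10.8 CPM, median 6.57 CPM, log2 fold change -1.71) and the corpus callosum (4.91 to 14.7 CPM, median 6.31 CPM, log2 fold change -1.72). It was also called lower in PON (-1.08), MO (-1.13, and -1.02 without the medulla of animal 6) and VTA (-1.04). The hippocampus was called at 1.01, and that call was lost with DESeq2 or its size factors (1.00 each) and without animal 4, 7, 8 or 10 (0.97 to 0.99). The VTA call was lost without animal 10 (-1.0) or 11 (-0.99).

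The balance of the L-type genes differed between regions. Taken as the log2 ratio of CACNA1C to CACNA1D, centred within each animal on its mean over the 16 groups, it was 1.53 ± 0.25 (SD, n = 8) in the thalamus, with a range of 1.09 to 1.82. In the cerebellum the same ratio was -2.69 ± 0.53, with a range of -3.51 to -1.78, and in the pituitary -1.15 ± 0.35. The cerebellum held 16.1 to 31.5 CPM of CACNA1D, near the middle of that gene's order, while CACNA1C was at its lowest there.

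CACNA1A, the P/Q-type channel that supports fast release at most central synapses and is abundant in Purkinje cells, was far above its other levels in the cerebellum. The 8 animals ranged from 643 to 852 CPM with a median of 741 CPM, while the cortex, the next group, ranged from 161 to 205 CPM. The ranges of CB and the cortex did not overlap, and CB exceeded the cortex by 2.01 on the log2(CPM + 1) scale in 8 of 8 animals. Against all other groups the log2 fold change was 3.28 (SE 0.09, adjusted p = 9.06e-62). The cortex was also called higher (log2 fold change 1.13, adjusted p = 3.75e-17), and GP (-1.57) and CC (-2.02) lower. The remaining 12 groups were not called, with log2 fold changes from -0.93 in VTA to 0.62 in PA. Single libraries stood out in the lower groups: animal 4 held 131 CPM in the medulla, 147 CPM in the substantia nigra and 68.9 CPM in the globus pallidus, each the highest of its group, and the nigral library was the one with raised cortical markers.

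CACNA1B, the N-type channel of presynaptic terminals and the target of ziconotide, was highest in PA and AMY among the 16 region groups. Its levels were 57.9 to 95.8 CPM (median 85.6 CPM) in PA, 40.5 to 95.8 CPM (median 73.9 CPM) in the amygdala and 38.8 to 87.2 CPM (median 54.0 CPM) in the hippocampus. These ranges overlapped widely, and the hippocampus was not set apart from CB (median 55.32 CPM) or the cortex (median 54.55 CPM). Among single sub-regions the temporal polar gyrus of the cortex held more, at 71.2 to 124 CPM (median 90.9 CPM). The log2 fold changes were 1.63 in PA (adjusted p = 4.24e-23), 1.38 in AMY and 1.08 in both HIP and the cortex. The cerebellum was called at 1.02, with 31.2 CPM in animal 4 and 51.7 to 62.3 CPM in the others. That call was lost with DESeq2 or its size factors (0.99 each) and without animal 2, 3 or 8 (0.98 to 1.00). Its floor was the corpus callosum at 1.25 to 4.46 CPM (median 2.62 CPM, log2 fold change -3.57, SE 0.21, adjusted p = 1.09e-30), followed by the globus pallidus at 2.58 to 11.3 CPM (log2 fold change -2.47).

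CACNA1E, the R-type channel of dendrites and terminals, was called higher in PA, the striatum, the hippocampus, the amygdala and the olfactory bulb. PA held 77.5 to 226 CPM (median 136 CPM, log2 fold change 1.95, adjusted p = 5.12e-18) and the striatum 88.2 to 165 CPM (median 122 CPM, log2 fold change 1.93, SE 0.18, adjusted p = 4.49e-18). The values were 1.55 in HIP, 1.5 in AMY and 1.19 in OB. Levels were lowest in the globus pallidus, the target of striatal output, at 0.37 to 16 CPM with a median of 3.00 CPM (log2 fold change -3.31, SE 0.31, adjusted p = 2.57e-17). The library at 16 CPM was that of animal 3 with raised striatal markers, and the others were at or below 3.72 CPM; without it the log2 fold change was -4.02. CC (-2.20), VTA (-1.57) and PIT (-1.08) were lower. This gene varied most between animals, with a median coefficient of variation of 39.5% over the groups against 19.4% to 33.3% for the other members.

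Within the Cav2 family the cerebellum moved CACNA1A away from its relatives. The centred log2 ratio of CACNA1A to CACNA1B was 2.14 there, and that of CACNA1A to CACNA1E 2.93. In PA the same ratios were -0.92 and -1.30, and in the striatum -0.65 and -1.64.

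CACNA1G, the Cav3.1 T-type channel of thalamic relay neurons, was highest in the thalamus. Its 8 thalamic values ranged from 280 to 428 CPM with a median of 337 CPM (log2 fold change 3.48, SE 0.12, adjusted p = 6.30e-51). The cerebellum (172 to 233 CPM, median 205 CPM, log2 fold change 2.68) and the olfactory bulb (176 to 236 CPM, median 188 CPM, log2 fold change 2.63) followed. The thalamic range did not overlap that of the cerebellum, whereas the cerebellum and the olfactory bulb differed by 0.03 on the log2(CPM + 1) scale, with 4 of 8 animals higher in the cerebellum (exact sign-flip permutation test, p = 0.77). The cortex (82.2 to 110 CPM, log2 fold change 1.55), HTHA (1.51, and 1.47 without the hypothalamus of animal 6) and SN (1.22) were also called higher. At the bottom were the pituitary (0.88 to 7.01 CPM, median 3.53 CPM, log2 fold change -3.47), the corpus callosum (1.6 to 6.61 CPM, -3.49), the pons (4.14 to 7.73 CPM, median 5.22 CPM, -2.92), the globus pallidus (2.94 to 12.1 CPM, -2.78) and the striatum (7.64 to 12.9 CPM, median 11.3 CPM, -1.86). The mean fell 91.3-fold from the thalamus to the pituitary.

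The medulla gave the widest spread of CACNA1G. Animals 2, 3 and 4 held 110, 152 and 140 CPM, animals 7, 8, 10 and 11 held 38.9 to 57.4 CPM, and animal 6 held 7.85 CPM. The medulla was called higher at a log2 fold change of 1.03, which became 1.22 without the library of animal 6 but 0.81 to 0.89 without animal 2, 3 or 4. The neighbouring pons had no value above 7.73 CPM.

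CACNA1H, the Cav3.2 T-type channel known from sensory neurons and from adrenal and other endocrine cells, was highest in the pituitary. The 8 values ran from 231 to 655 CPM with a median of 343 CPM (log2 fold change 3.48, SE 0.13, adjusted p = 1.14e-47). The striatum followed at 125 to 303 CPM (median 221 CPM, log2 fold change 2.72, SE 0.14, adjusted p = 1.25e-35), and the pituitary exceeded it in 8 of 8 animals. HIP (133 to 227 CPM, log2 fold change 2.35), OB (127 to 230 CPM, 2.25), AMY (97.5 to 208 CPM, 2.01) and PA (92.7 to 187 CPM, 1.87) formed an overlapping series. Its lowest groups were the cerebellum (1.84 to 8.22 CPM, median 2.67 CPM, log2 fold change -3.78, adjusted p = 8.43e-26), the pons (2.42 to 5.67 CPM, -3.52) and the thalamus (5.47 to 11.3 CPM, median 8.15 CPM, -2.42), and CC (-2.27) and GP (-1.43) were called lower too. The mean fell 111-fold from the pituitary (382 CPM) to the cerebellum (3.44 CPM), the widest span among the members. In the medulla it was called at -1.10, with 90.1 CPM in animal 4 and 4.59 to 24.2 CPM in the others, and the call was lost without the block (-0.93), without the medulla of animal 6 (-0.97) and without animal 2, 3, 6 or 8 (-0.94 to -0.98). In the hypothalamus it was not called, with 24.1 CPM in the library of animal 6 and 51.5 to 107 CPM in the others (log2 fold change 0.85, and 0.97 without that library).

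CACNA1I, the Cav3.3 T-type channel of the brain, declined in small steps over its upper groups. Medians lay between 28.3 and 50.8 CPM in OB, CB, HIP, the cortex, PA, AMY, STR and PON, and no step between neighbours in this series passed an unadjusted p of 0.05. The largest log2 fold changes were 1.87 in OB (adjusted p = 5.95e-22) and 1.82 in CB (adjusted p = 9.99e-22), followed by HIP and the cortex at 1.43 each. The pons was called at 1.04, lost without animal 3, 10 or 11 (0.92 to 0.98). Levels dropped to 0.83 to 3.13 CPM in the pituitary (median 1.72 CPM, log2 fold change -3.16), 0.34 to 3.85 CPM in the corpus callosum (-3.50) and 2.24 to 5.18 CPM in the substantia nigra (median 4.11 CPM, -2.02), and GP was called lower at -2.17. In the substantia nigra CACNA1G was higher and CACNA1I lower than the mean of the other 15 groups.

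The T-type genes showed the largest shifts of balance in the set. The centred log2 ratio of CACNA1G to CACNA1H was 5.72 ± 0.59 (SD, n = 8) in the cerebellum and 5.34 ± 0.38 in the thalamus. It was -4.21 ± 0.34 in the striatum and -6.29 ± 0.94 in the pituitary. The sign was the same in 8 of 8 animals in each of these 4 groups, where the ranges were 4.53 to 6.30, 4.78 to 5.79, -4.55 to -3.49 and -7.67 to -4.99. In the pons the ratio of CACNA1G to CACNA1I was -3.37, since CACNA1G was low and CACNA1I was not.

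The order of the 16 groups was tested step by step for each member by an exact sign-flip permutation test over the 8 animals (two-sided, log2(CPM + 1)). Of the 120 neighbour pairs, 17 had the same direction in 8 of 8 animals, which gives the smallest p that this test allows, 0.0078. After Benjamini-Hochberg adjustment over the 120 pairs the smallest adjusted p was 0.055, while 35 pairs had an unadjusted p under 0.05. With 17 pairs at the smallest possible p, no adjusted p could fall below 0.055. That no step passed 0.05 was therefore set by the limit of the test and says nothing about single steps. Neighbours were ranked on the same means that were then compared, so the steps were not chosen beforehand. In 4 pairs the CPM ranges did not overlap: CB over the cortex for CACNA1A, and THA over CB, OB over the cortex and HIP over STR for CACNA1G. Among the other 13 steps shared by 8 of 8 animals were VTA over GP for CACNA1B (1.43) and CACNA1C (0.90), HTHA over the cortex for CACNA1H (1.10), HTHA over VTA for CACNA1I (0.97) and THA over PON for CACNA1H (0.91). CACNA1E had no such step, so that none of its neighbouring groups was separated in this way.

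Within the cortex the 31 sub-regions differed for all 8 members (edgeR's quasi-likelihood F test, adjusted p from 5.17e-92 for CACNA1H to 0.041 for CACNA1D), as they did for 75.0% of genes. Each of the 5 lobes was compared with the mean of the other 4, at an adjusted p under 0.05 with no fold limit. Of the 8 members, 3 were called in the frontal lobe (background 43.4%), 1 in the limbic lobe (background 14.9%), 5 in the occipital lobe (background 54.8%), 2 in the parietal lobe (background 9.58%) and 4 in the temporal lobe (background 25.2%).

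CACNA1H carried by far the largest lobar difference among the members. The 8 animals held 51.5 to 79.6 CPM in the frontal lobe (median 64.4 CPM), 34.2 to 66.2 CPM in the limbic lobe (median 41.6 CPM) and 25.1 to 41.4 CPM in the temporal lobe (median 31.7 CPM). The parietal lobe held 15.0 to 39.8 CPM (median 29.6 CPM), and the occipital lobe only 4.19 to 6.18 CPM (median 5.29 CPM), below every value of the other lobes. The log2 fold changes were 1.59 for frontal (SE 0.08, adjusted p = 1.95e-17), 0.93 for limbic (adjusted p = 4.43e-10), 0.30 for temporal (adjusted p = 0.0098) and -2.88 for occipital (SE 0.12, adjusted p = 4.86e-21). The parietal value was 0.06 (adjusted p = 0.76).

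Single gyri differed more than the lobes. The anterior cingulate gyrus held 61.5 to 146 CPM of CACNA1H (mean 92.9 CPM) and the posterior superior occipital gyrus 3.72 to 8.43 CPM (mean 4.91 CPM), an 18.9-fold difference of means that was 10.4-fold to 29.8-fold within animals. The limbic lobe was not uniform, since the lingual gyrus held 8.99 to 23 CPM and the fusiform gyrus 8.05 to 26.8 CPM, below every anterior cingulate value. In the temporal lobe the temporal pole held 49.6 to 98.8 CPM and the occipito-temporal gyrus 5.89 to 16.2 CPM. Across the central sulcus the superior precentral gyrus held 34.5 to 94.7 CPM and the superior postcentral gyrus 7.83 to 30.0 CPM. The inferior pair gave 49.1 to 116 CPM and 11.5 to 31.5 CPM, so that neither pair overlapped. In the parietal lobe the superior parietal lobule held 29.4 to 67.7 CPM, and the cuneus held 5.90 to 19.8 CPM. Of the variance of CACNA1H over cortical libraries, 57.9% lay between lobes, 31% between sub-regions of a lobe and 3.32% between animals.

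**Figure D3:**
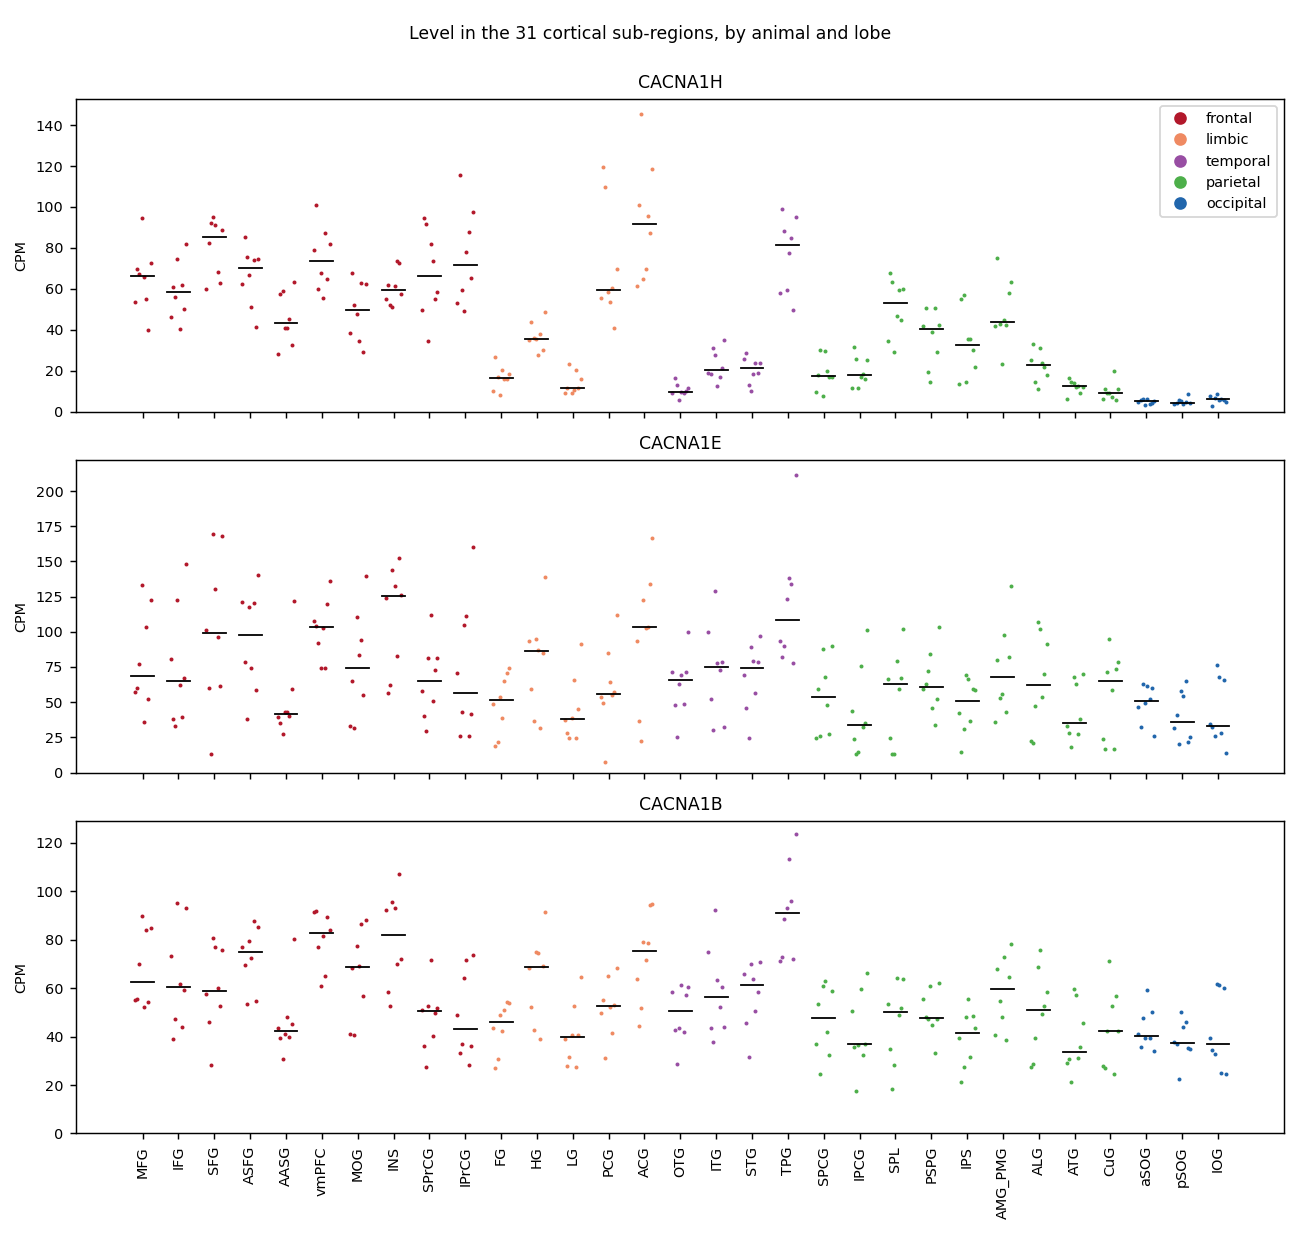
Level in CPM of CACNA1H, CACNA1E and CACNA1B in the 31 cortical sub-regions, coloured by lobe; each point is 1 animal (n = 8) and the line is the median. CACNA1H falls from the frontal and anterior cingulate gyri to 2.93 to 8.83 CPM in the 3 occipital gyri, while CACNA1E and CACNA1B fall less and overlap more.

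CACNA1B and CACNA1E had a shallower slope in the same direction. CACNA1B held 46.5 to 78.9 CPM in the frontal and 46.6 to 75.5 CPM in the temporal lobe, against 31.2 to 54.9 CPM in the occipital lobe, with log2 fold changes of 0.34, 0.33 and -0.43 (adjusted p = 1.05e-05, 7.13e-05 and 4.12e-07). It was also lower in the parietal lobe (-0.27, adjusted p = 0.0028). CACNA1E gave 0.47 in the frontal, 0.39 in the temporal and -0.57 in the occipital lobe (adjusted p = 0.0019, 0.017 and 4.57e-04), and its temporal call was lost without animal 2 or 8 (adjusted p = 0.058 and 0.061). Over the 31 sub-region means these genes had a Pearson r of 0.96 with each other.

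The other members varied little between lobes. CACNA1C was higher in the temporal lobe (0.32, adjusted p = 1.68e-04) and lower in the occipital (-0.19) and parietal lobes (-0.20, adjusted p = 0.032). The parietal call was lost without animal 2, 3, 6, 8 or 10 and with no filter on low counts (adjusted p = 0.057 to 0.13), and the occipital call without animal 11 (-0.10, adjusted p = 0.076). CACNA1A was the only member called higher in the occipital lobe, at 174 to 234 CPM against 147 to 212 CPM in the frontal lobe (log2 fold change 0.19, adjusted p = 0.0010). CACNA1D, CACNA1G and CACNA1I were called in no lobe (40 member and lobe tests in all, 15 called). Without the animal block 7 of the 40 were called, those being among the 15.

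Marker sums also differed between lobes. The 4 cortical projection neuron markers summed to 713 to 865 CPM in the occipital lobe and 987 to 1254 CPM in the frontal lobe, and the 8 neuron markers to 13660 to 15110 CPM and 10330 to 11680 CPM. The matched oligodendrocyte markers summed to 3364 to 5153 CPM in the occipital and 1817 to 3056 CPM in the frontal lobe. For the thalamic neuron markers the sums were 160.6 to 224.3 CPM and 33.53 to 52.72 CPM. The part of these cell types in the lobar differences was not tested.

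In the hippocampus the dentate gyrus (DG) was compared with the mean of CA1 and CA3. Of the 8 members, 7 were called at an adjusted p under 0.05 (background 38.2%), 6 higher in DG and 1 lower. CACNA1G was the lower gene, with 5.48 to 19.5 CPM in DG (median 9.89 CPM) against 9.49 to 75.0 CPM in CA1 (median 36 CPM) and 13.5 to 55.3 CPM in CA3 (median 22.9 CPM), a log2 fold change of -1.61 (SE 0.35, adjusted p = 0.0015). The higher genes moved by less: CACNA1I by 0.65, CACNA1D by 0.61, CACNA1C by 0.57, CACNA1E by 0.46, CACNA1H by 0.43 and CACNA1A by 0.25 (adjusted p from 8.66e-05 to 0.035). The CACNA1A call was lost without animal 2, 6, 7, 8 or 10 (adjusted p = 0.063 to 0.14) and the CACNA1E call without animal 6 or 7 (0.058 and 0.051). CACNA1B did not pass (0.08, adjusted p = 0.50). The 5 oligodendrocyte markers summed to 1512 to 3079 CPM in DG and to 3356 to 9510 CPM over CA1 and CA3, and their part was not tested.

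Between CA1 and CA3 no member was called by edgeR (background 0.0323%). By DESeq2 0 were called, and 1 member, CACNA1C (0.32), had an unadjusted p under 0.05, as did 1073 of 15495 genes by edgeR.

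In the striatum the nucleus accumbens (ACb) was compared with the mean of caudate nucleus (CN) and putamen (PUT), and CN with PUT. In the first comparison 5 of 8 members were called, all higher in ACb (background 43.3% in either direction). These were CACNA1D by 0.59 (adjusted p = 9.82e-07), CACNA1A by 0.51, CACNA1G by 0.41, CACNA1B by 0.38 and CACNA1H by 0.31. The CACNA1H call was lost without animal 3, 4, 6, 8 or 11 (adjusted p = 0.050 to 0.086). In the second, 5 of 8 were called, all higher in CN (background 29.5% in either direction). CACNA1E had the largest difference, with 104 to 287 CPM in CN (median 162 CPM) and 39.4 to 127 CPM in PUT (median 80.9 CPM), a log2 fold change of 1.2 (SE 0.21, adjusted p = 2.57e-04). CACNA1G followed at 0.69, CACNA1A at 0.66, CACNA1B at 0.58 and CACNA1D at 0.47. CACNA1H, with medians of 266, 229 and 198 CPM in ACb, CN and PUT, did not differ between CN and PUT by this test (0.08, SE 0.13, adjusted p = 0.67). The putamen held 12370 to 20950 CPM of the summed oligodendrocyte markers, against 3508 to 7911 CPM in the caudate and 2225 to 7116 CPM in the accumbens, and their part in these differences was not tested.

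Between cerebellar cortex (CBC) and vermis (CBV) no member was called by edgeR (background 0.841%), none by DESeq2, and 0 had an unadjusted p under 0.05. CACNA1A, for example, held medians of 675 CPM in CBC and 748 CPM in CBV (log2 fold change 0.01, SE 0.12).

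**Figure D4:**
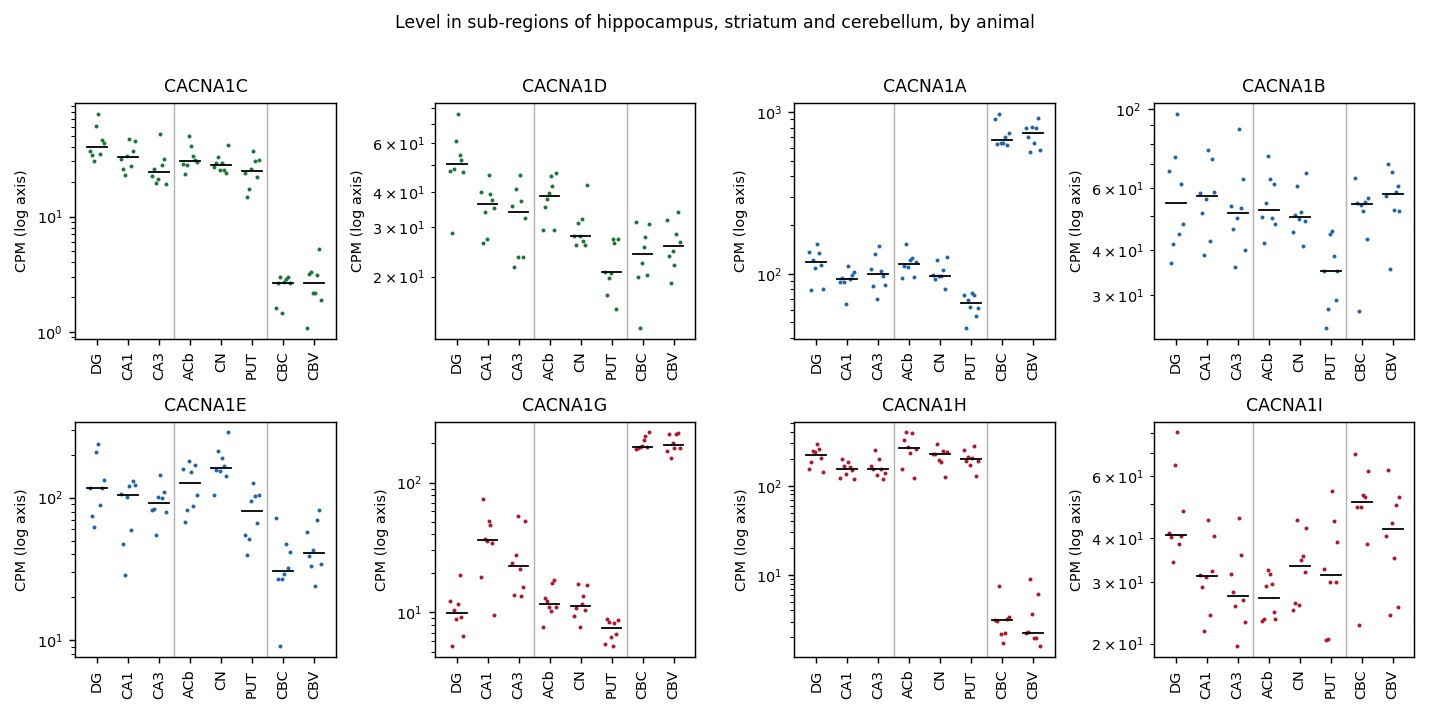
Level in CPM (log axis) of each member in the sub-regions of hippocampus, striatum and cerebellum, separated by grey lines; each point is 1 animal (n = 8) and the line is the median. CACNA1G is lower in DG than in CA1 and CA3, and CACNA1E lower in PUT than in CN.

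Young and mid-aged animals were compared in each region group with sex as a covariate, at an adjusted p under 0.1 and an absolute log2 fold change above 1. Of the pairs of a member and a group, 1 was called, against a background of 0.0153% over all genes and groups. It was CACNA1A in the pituitary, where the background was 0.181%. The 4 young pituitaries held 61.9 (animal 4), 69.5 (7), 82.9 (8) and 71.0 CPM (10), and the 4 mid-aged ones 39.3 (2), 38.7 (3), 29.2 (6) and 30.0 CPM (11). The groups did not overlap, and the log2 fold change was -1.04 (SE 0.12, adjusted p = 0.084). The call rests on few animals: it was lost in 6 of the 8 fits that left out 1 animal (adjusted p = 0.11 to 0.25, log2 fold change -0.99 to -1.06) and without the sex covariate (adjusted p = 0.19). By edgeR it was kept without animal 7 (adjusted p = 0.030) or 8 (0.092) and with no filter (0.0017). DESeq2 kept it at an adjusted p of 2.2e-09 (log2 fold change -1.035), so the adjusted p depended strongly on the fit.

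Marker sums in the pituitary libraries were spread as follows. The 4 anterior pituitary markers summed to 30190 to 48680 CPM in the young animals and to 83410, 43410, 347000 and 236100 CPM in mid-aged animals 2, 3, 6 and 11, a range that overlaps that of the young. The 5 astrocyte markers summed to 51 to 120 CPM in the young and to 20.3, 101, 26 and 31.9 CPM in animals 2, 3, 6 and 11. The part of either in the CACNA1A values was not tested. In the same libraries CACNA1G held 3.52 to 7.01 CPM in young and 0.88 to 3.53 CPM in mid-aged animals (log2 fold change -1.35, adjusted p = 0.41), and CACNA1H 231 to 380 CPM and 273 to 655 CPM (0.61, adjusted p = 0.59). The median log2 fold change over the 8 members was 0.01 and over all genes -0.02. DESeq2 called CACNA1G in the pituitary as well (-1.34, adjusted p = 0.086). Over all groups 15 of these pairs had an unadjusted p under 0.05, of which 4 were in the pituitary and 4 in the thalamus. Among all genes, 1065 of 14934 in the pituitary and 1945 of 14904 in the thalamus had an unadjusted p under 0.05 for age stage. Leaving out animal 7 gave 3 calls, the further ones being CACNA1E (1.48) and CACNA1I (1.00) higher with age in the thalamus.

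**Figure D5:**
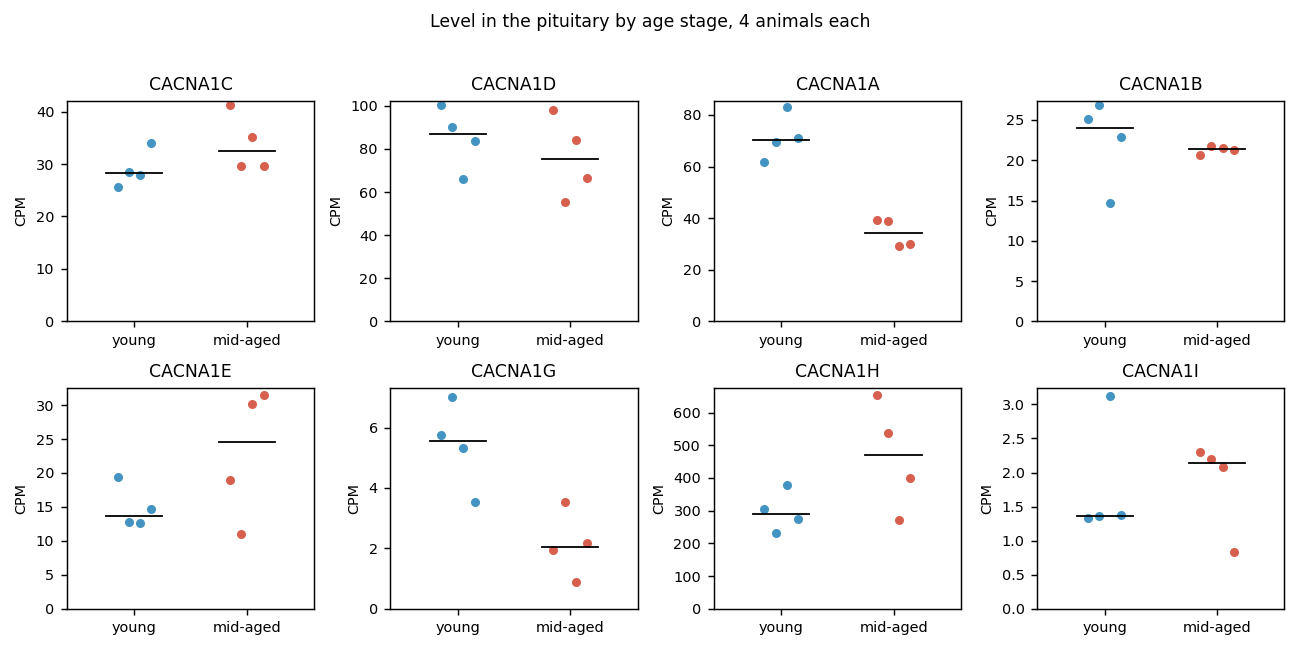
Level in CPM of each member in the pituitary of 4 young and 4 mid-aged animals; points are animals and the line is the median. CACNA1A is at 61.9 to 82.9 CPM in the young and 29.2 to 39.3 CPM in the mid-aged animals, while the ranges of the other 7 members overlap.

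No member was called between females and males in any group by edgeR or by DESeq2, with 0 pairs called against a background of 0.103%, and 3 pairs had an unadjusted p under 0.05. The largest absolute difference was that of CACNA1H in the medulla (1.64), where animal 4, a young female, held 90.1 CPM. The effect of age stage differed between region groups for no member (edgeR F test of the interaction, not run with DESeq2, background 1.59%), and that of sex for none (background 0.639%). In each of these tests 1 member had an unadjusted p under 0.05, CACNA1A for age stage (adjusted p = 0.355) and CACNA1H for sex (adjusted p = 0.11). Of 17383 genes, 2253 had an unadjusted p under 0.05 for age stage and 1655 for sex.

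The share of the spread that lay between region groups differed between members. Over all libraries it was 91.7% for CACNA1G, 88.6% for CACNA1A, 79.9% for CACNA1I, 79.8% for CACNA1C, 78.1% for CACNA1D, 71.9% for CACNA1B, 64.8% for CACNA1H and 55.2% for CACNA1E, as sums of squares of log2(CPM + 1). For CACNA1H a further 28.4% lay between sub-regions of a group, against 2.02% to 10.3% for the others. The share between animals was largest for CACNA1E (10.7%) and smallest for CACNA1G (0.54%). Within the cortex alone the share between animals was 24.5% to 37.2% for 7 members and 3.32% for CACNA1H.

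The members' patterns were compared over the 51 sub-region means of log2(CPM + 1), as a description in which the 31 cortical points share a tissue. The 28 pairs had a median Pearson r of 0.52 (n = 51 sub-regions), and 26 were above 0. CACNA1B and CACNA1E were most alike (0.85), followed by CACNA1B and CACNA1I (0.78). CACNA1G and CACNA1H were the least alike (-0.31), followed by CACNA1A and CACNA1H (-0.26). In the 31 cortical sub-regions alone, CACNA1B and CACNA1C reached 0.88, while CACNA1A and CACNA1B dropped from 0.71 to -0.03.

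Among all genes with a symbol, those near each member were as follows. CACNA1A had CLIP1 (0.96), MAP3K12 (0.94) and ITGA11 (0.93) nearest. CACNA1B had FAM171A2 (0.95), CEP170B (0.95) and WNK2 (0.94). CACNA1I was close to ADD2 (0.94) and RBFOX3 (0.92), the latter a marker of mature neurons. For CACNA1E they were SGIP1 (0.93), ICA1L (0.90) and JPH4 (0.90). CACNA1D was nearest to GGA2 (0.92), SPEG (0.92) and TMEM67 (0.92), and CACNA1H to LRRC56 (0.91), GNB2 (0.88) and PDE6B (0.88). CACNA1C had LRRC7 (0.89), MARCHF4 (0.89) and CAND2 (0.88), and CACNA1G had the lowest values, TBC1D9 (0.86), PPM1H (0.83) and SEPTIN6 (0.82). Over the 31 cortical sub-regions alone, 14 of the 24 genes chosen in this way kept an r above 0.7 and 5 were below 0.3. Among these CLIP1 had an r of 0.08 with CACNA1A and RBFOX3 one of -0.24 with CACNA1I.

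The genes of the other channel subunits were tested in the same comparisons. The alpha-2-delta subunits, which help to carry the pore to the membrane, were called higher in 13 and lower in 15 of 64 pairs of a gene and a group (background 9.36% higher and 7.96% lower for this and the lists that follow, median log2 fold change 0.27). CACNA2D3 was highest in the striatum at 214 to 324 CPM (log2 fold change 2.57, adjusted p = 3.50e-40), CACNA2D1 fell by 3.04 in the globus pallidus, where it held 0.61 to 13.3 CPM, and CACNA2D4 fell by 2.75 in the cerebellum, where it held 0.23 to 0.53 CPM. The cytoplasmic beta subunits were called higher in 20 and lower in 13 of 64 pairs (background 9.36% and 7.96%, median -0.04). CACNB4, the beta subunit mutated in the ataxic lethargic mouse, was highest in the cerebellum at 47.2 to 148 CPM (log2 fold change 2.78, adjusted p = 7.42e-35), the group in which CACNA1A was highest. CACNB2 and CACNB3 were both lowest in the corpus callosum (-3.19 each).

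The gamma and TARP subunits, most of which serve AMPA receptors, were called higher in 19 and lower in 20 of 80 pairs (5 of 8 genes tested, background 9.36% and 7.96%, median 0.20). CACNG3 fell by 6.00 in the pituitary, with 0 to 0.92 CPM there and a mean of 246 CPM in the amygdala, CACNG2 fell by 3.36 in the pituitary, and CACNG6 fell by 5.38 in the cerebellum, where it held 0 to 0.04 CPM, on the fitted log2 scale. The calcium-activated potassium channels, which open on calcium entry, were called higher in 17 and lower in 12 of 64 pairs (background 9.36% and 7.96%, median 0.09). KCNN1 (-6.42) and KCNN3 (-3.24) were lowest in the pituitary, at 0 to 0.71 CPM and 0.44 to 2.39 CPM, and KCNMA1 fell by 2.1 in the globus pallidus, where it held 0.37 to 1.51 CPM. The fitted values against groups with libraries at 0 depend on the prior count and are no measured ratio. Of the remaining pore-forming genes, CACNA1F, the retinal L-type channel, was tested and was highest in the pituitary at 37.5 to 155 CPM (log2 fold change 2.29, adjusted p = 1.94e-48), with 2 higher and 1 lower call in 16 pairs (background 9.36% and 7.96%, median -0.24), and CACNA1S did not pass the filter on low counts.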

How the data were processed

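The authors deposited a table of raw gene counts, which per the labels and the methods of the study were made with Trim Galore 0.4.4, HISAT2 2.0.5 and HTSeq 0.6.1 from ribosomal RNA depleted libraries. The counts were not normalized. Strand setting and handling of reads shared between genes are not given in the sources used here. The 51 sub-regions of 8 animals were analysed; midbrain and ATAC-seq samples were not analysed here. Symbols were matched for 17572 of 30807 gene IDs. No gene lengths were used, so the planned share of each member per length was not computed, and no sequences are printed.

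Counts were summed within an animal over the sub-regions of a region group or lobe and tested with edgeR 4.0.16 (limma 3.58.1; TMM, filterByExpr, quasi-likelihood, Benjamini-Hochberg over all genes), in R 4.3.3, with the animal as block for regions, because the samples of one animal are paired (mean correlation of deviations from the group means 0.365 within an animal, 0.294 to 0.473 for single animals, and -0.049 between animals). Region groups are called at 0.05 and an absolute log2 fold change of 1, age and sex at 0.1 and 1, lobes and sub-regions at 0.05. The procedure was run on simulated counts with large changes, the same spread setting for every gene and no animal effect. That run does not show how the tests behave for small changes or for samples paired by animal. CPM levels are TMM-scaled over all libraries, and logs use a pseudocount of 1. For orders and ratios the logs were averaged over the sub-regions of a group within an animal. Figures and levels were made with Python 3.11.15, numpy 2.4.6, pandas 2.3.3, scipy 1.17.1 and matplotlib 3.10.9. Alternatives were no block, DESeq2 1.42.0 and its size factors, no filter, leaving out each animal, no sex or age covariate and, for orders, a pseudocount of 0.1. Leaving out each of 5 of the libraries that stood apart was added after seeing the data. Library totals ran from 7784678 to 31083490 counts. The edgeR p-values for regions, lobes and sub-regions measure the spread left after the animal block, with an estimate shared by the groups of a fit. They do not measure the spread of a single group over its animals. Those for age and sex within a group measure the spread between these 8 animals.

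Named genes were the 8 members, at most 3 called genes of each accessory list with the largest absolute log2 fold change, and for each member the 3 genes with the highest Pearson r among those with a symbol and a mean of at least 1 CPM in a region group; 1 of these genes is not reported here. The members and lists were chosen with earlier results of these data known. The marker lists held 12 cell types; 13 of their 57 genes had no matching symbol.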

Additional observations from a re-analysis of the deposited data

Results flagged for a closer look

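In 16 sets of 8 animals (a member in a region group, with 8 members in 16 groups checked), the highest or lowest animal lay apart. Its distance from the rest was beyond Dixon's 95% limit for 8 values. Chance alone gives this in about 1 in 20 sets if the values are normally distributed. The limit was applied to CPM with no log, and normality was not tested. The sets share libraries, so these values are not independent. In the globus pallidus, animal 3 was highest for CACNA1B (11.34 CPM, others 2.58 to 6.64 CPM), CACNA1E (16.03 CPM, others 0.37 to 3.72 CPM) and CACNA1H (36.52 CPM, others 7.86 to 19 CPM). That library also held the raised striatal marker sum, and the part of this in the values was not tested. Animal 4 was highest for CACNA1A in the globus pallidus (68.92 CPM, others at most 38.8 CPM) and animal 2 lowest for CACNA1I (0.6132 CPM, others at least 3.17 CPM). The library of animal 2 held the most oligodendrocyte markers of its group (103900 CPM) and the fewest neuron markers (2053 CPM, others 2987 to 5380 CPM), and their part was not tested.

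Animal 4 was also highest for CACNA1A in the substantia nigra (146.7 CPM, others at most 96.5 CPM), in a library with 103 CPM of cortical projection neuron markers (others at most 47.9 CPM, their part not tested), for CACNA1H in the cerebellum (8.221 CPM, others at most 4.64 CPM) and the medulla (90.12 CPM, others at most 24.2 CPM) and for CACNA1I in the corpus callosum (3.851 CPM, others at most 1.85 CPM). Animal 4 was lowest for CACNA1B in the cerebellum (31.2 CPM, others at least 51.7 CPM). Animal 7 was highest in the hippocampus for CACNA1C (58.58 CPM, others at most 38.5 CPM) and CACNA1I (56.97 CPM, others at most 38.5 CPM), and in the ventral tegmental area for CACNA1I (15.86 CPM, others at most 11.7 CPM). The remaining values were CACNA1B in the medulla of animal 6 (3.562 CPM, others at least 19.2 CPM), a library with few neuron markers, CACNA1D in the corpus callosum of animal 11 (14.7 CPM, others at most 7.20 CPM) and CACNA1G in the pons of animal 10 (7.731 CPM, others at most 5.79 CPM).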

How the results depend on the processing

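Of 1637 values recomputed for 106 called results, 1565 stayed on the same side of their threshold, 72 (of 20 results) no longer passed it and 0 had the opposite sign. The 73 calls between region groups became 70 with DESeq2 or its size factors, 73 with no filter and 69 to 71 without 1 animal. The 17 calls within structures became 15 to 17 and the 15 between lobes 13 to 17 without 1 animal. Without the animal block the counts were 72, 14 and 7 for region groups, structures and lobes, so the pairing by animal moved the lobe count most. The 1 age call became 2 with DESeq2, 0 without the sex covariate and 0 to 3 without 1 animal, and the cause was not tested. The 0 sex calls stayed at 0 to 0. The median correlation between members, 0.5234 over 51 sub-regions, was 0.5798 over 31 cortical sub-regions and 0.5741 over 16 groups. In the order of levels 0 of 120 steps passed with either pseudocount, where the smallest p of the test limits the adjusted values. Leaving out the hypothalamus of animal 6, the medulla of animal 6, the globus pallidus of animal 3 or 2 or the substantia nigra of animal 4, chosen after seeing the data, gave 73, 71, 73, 73 and 73 calls. The share of each member per coding length was not run. Age comparisons rested on 4 animals per stage.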
